A study of Homo sapiens with 6 samples.

Results

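A set of 10 genes that carry nucleoside analogues into the cell, activate them, inactivate them or supply the nucleotides they compete with was compared between the castration-resistant prostate cancer line C4-2B and its cabazitaxel-resistant derivative RC4-2B. The genes were chosen by name for their role, with earlier results of these data known, and they are 10 of the 58735 genes in the deposited tables. They are SLC29A1 and SLC29A2 (uptake), DCK (activation), CDA, DCTD, NT5C2 and SAMHD1 (inactivation), and RRM1, RRM2 and TYMS (supply of deoxynucleotides). Bulk RNA sequencing gave 3 C4-2B and 3 RC4-2B libraries, labelled as biological replicates. C4-2B, the parental line, had no selection. RC4-2B was 1 subclone, selected from C4-2B over 4 months in repeated 72 h exposures to cabazitaxel (CBZ, a taxane that binds tubulin) at concentrations raised from 0.1 nM to 20 nM. Before RNA isolation both lines were grown for 72 h, with no drug named for that time. The labels give 10% fetal bovine serum, while the methods name charcoal-stripped serum as well, at 10% each. A difference between the lines is therefore a difference between the parental population and a single selected subclone, and it cannot be told apart from variation between clones.

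Nucleoside analogues such as gemcitabine, cytarabine and decitabine are prodrugs that enter cells mainly through the equilibrative transporters encoded by SLC29A1 (ENT1) and SLC29A2 (ENT2). Deoxycytidine kinase, the product of DCK, adds their first phosphate, and later kinases make the triphosphate that polymerases build into DNA. Cytidine deaminase (CDA) and deoxycytidylate deaminase (DCTD) deaminate the drug or its monophosphate, the nucleotidase NT5C2 takes the phosphate off again, and SAMHD1 hydrolyses deoxynucleoside triphosphates, including that of cytarabine. Ribonucleotide reductase (large subunit RRM1, small subunit RRM2) and thymidylate synthase (TYMS) make the natural deoxynucleotides, and they are themselves targets of gemcitabine and of fluoropyrimidines.

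Library totals ran from 15707134 to 18052517 counts, and 3 counts correspond to 0.170 to 0.188 CPM. CPM here are counts scaled to library total and by the trimmed mean of M-values (TMM). Replicate 2 of RC4-2B stood apart from the other libraries. The SD over genes of its log2 difference from RC4-2B replicates 1 and 3 was 0.61 and 0.54, against 0.24 between those 2 and 0.16 to 0.22 among C4-2B libraries. Over 11259 genes, its log2 difference from them was lower the higher the transcript GC (Spearman rho = -0.73, across genes of the same libraries, which are not independent replicates). Where leaving out this library or correcting for GC content moved the log2 fold change of a member or named pathway gene by over 1.5 times, that value is given as well. All 9 prostate epithelial markers checked were detected in both lines. With all libraries 1 of them was called, KLK3, which fell (log2 fold change -4.33, edgeR adjusted p = 0.000154). KLK2 was lower in RC4-2B without overlap, at a log2 fold change of -0.84 (edgeR adjusted p = 0.13). Without RC4-2B replicate 2 the KLK2 value was -0.56 (edgeR adjusted p = 0.00045), and DESeq2 called it with all libraries (adjusted p = 0.022). None of 6 leukocyte markers passed the filter on low counts, and 5 of them never exceeded 3 counts. Of the endothelial markers, 3 of 4 were at or under that floor. Of 7 stromal markers, 3 had 0 counts in every library and 4 were tested, with a summed level of 26.0 to 30.5 CPM in C4-2B and 27.8 to 41.96 CPM in RC4-2B. None of the tested stromal or endothelial markers passed the threshold with all libraries. The lines did not overlap for 34.1% of all tested genes, and for 3 of these markers. The markers were COL3A1 (log2 fold change 1.69, edgeR adjusted p = 0.051), ACTA2 (-1.57, adjusted p = 0.073) and VWF (-0.84, adjusted p = 0.065), all at or under 8.14 CPM. Without RC4-2B replicate 2 each was called, as was COL1A1, in a fit that called 12.5% of all genes. In bulk RNA, fewer cells of a kind and less RNA per cell cannot be told apart.

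The promoter stretches of a detected and an undetected gene of cytidine analogue metabolism are shown first, since DCK was detected in every library and CDA in none above the floor. Each is the 250 bases before the start given by RefSeq (GRCh38.p14), written on the strand of the gene, and capitals mark every CG dinucleotide. The DCK stretch, chr4:70993399-70993648 on the plus strand, holds 31 of them and the CDA stretch, chr1:20588847-20589096 on the plus strand, holds 5, against a median of 11 over 35116 promoters of the same length. The count describes the letters and says nothing of methylation, which was not measured. The deposited DCK span starts at 70992538, so the DCK stretch lies inside it. The CDA stretch reaches past the deposited CDA start at 20588948.
DCK: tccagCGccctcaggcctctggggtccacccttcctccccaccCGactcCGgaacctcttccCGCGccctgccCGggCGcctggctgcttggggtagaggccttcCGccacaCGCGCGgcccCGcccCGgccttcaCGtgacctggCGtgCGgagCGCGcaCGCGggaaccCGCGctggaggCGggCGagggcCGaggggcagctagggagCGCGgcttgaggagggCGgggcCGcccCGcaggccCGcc
CDA: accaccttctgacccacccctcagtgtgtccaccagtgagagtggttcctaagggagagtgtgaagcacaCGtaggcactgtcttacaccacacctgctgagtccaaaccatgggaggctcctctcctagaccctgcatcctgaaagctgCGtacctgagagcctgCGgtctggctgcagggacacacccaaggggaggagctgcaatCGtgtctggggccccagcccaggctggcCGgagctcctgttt

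CDA, whose product deaminates cytidine analogues before they are phosphorylated, was at or under the detection floor in every library. The 3 C4-2B libraries held 0, 2 and 0 reads and the 3 RC4-2B libraries held 0, 1 and 1. None exceeded 3 counts, which for this gene corresponds to 0.157 to 0.174 FPKM (fragments per kilobase of transcript, scaled to library total), so no fold change was computed. The floor of 3 counts is a fixed setting, and no error bound was computed for CDA. CDA is annotated on chromosome 1 from 20588948 to 20618908 in the deposited tables (GRCh38).

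DCK, the activating kinase, was expressed in both lines at 13.3, 11.9 and 13.2 FPKM in C4-2B and 10.4, 14.9 and 11.7 FPKM in RC4-2B. Per length, DCK therefore exceeded the 3-count floor of CDA at least 76.0-fold in every C4-2B library and at least 59.8-fold in every RC4-2B library. In TMM-scaled CPM, DCK was 47.8, 43.3 and 47.2 in C4-2B, against 37.6, 51.5 and 41.6 in RC4-2B. The groups overlapped, because RC4-2B replicate 2 was the highest of the 6 libraries while the other RC4-2B libraries lay below all C4-2B libraries. The log2 fold change, RC4-2B over C4-2B, was -0.08 (SE 0.14, 95% interval -0.41 to 0.24, edgeR adjusted p = 0.75). Without RC4-2B replicate 2 it was -0.22 (adjusted p = 0.16), and with a GC correction -0.29 (adjusted p = 0.080). DCK has the lowest transcript GC content of the 10 genes, 37.8%. With both the correction and replicate 2 left out, an alternative chosen after seeing the data, it was -0.30 with edgeR adjusted p = 0.040, in a fit that called 13.3% of all genes. The tables place DCK on chromosome 4 (70992538 to 71030914), where it overlaps MOB1B on the same strand over 199 exonic bases. MOB1B itself had a log2 fold change of 0.26 (edgeR adjusted p = 0.39). For MOB1B it was 0.14 without RC4-2B replicate 2 and 0.06 with the GC correction.

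Over the 9 members tested, none passed an adjusted p of 0.05 in edgeR's quasi-likelihood test over 15054 genes, of which 1.98% were called. At an unadjusted p under 0.05, 1 member was higher (NT5C2) and 2 were lower (SLC29A2 and TYMS) in RC4-2B, where 21.4% of all tested genes passed. DESeq2 also called 0 members at an adjusted p of 0.05, where it called 5.93% of 15221 genes. It gave 1 member higher and 2 lower at an unadjusted p under 0.05, where 20.6% of all genes passed. The CPM of the lines did not overlap for 6 of the 9 members, 3 higher and 3 lower in RC4-2B, against 34.1% of all tested genes. The median log2 fold change was 0.02 over the members and 0.01 over all tested genes. Every member's 95% interval lay between -1.03 and 0.70 on the log2 scale.

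**Figure D1:**
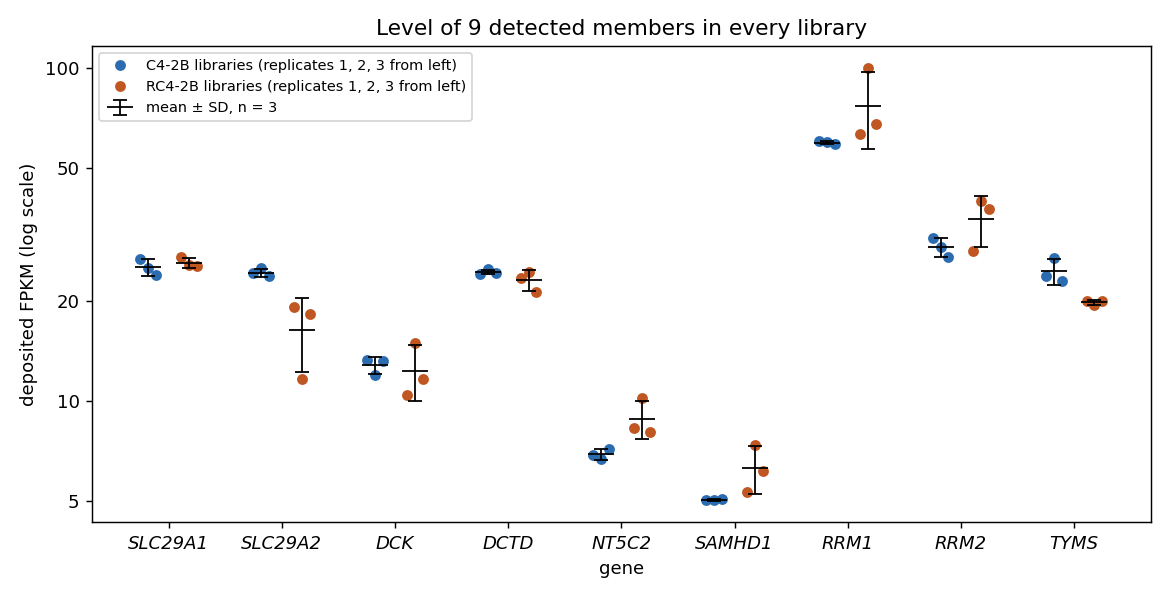
Deposited FPKM (log axis) of the 9 detected members in every library, with the mean and SD of 3 libraries per line. RRM1 was highest in both lines (59.6 and 77.0 FPKM) and SAMHD1 lowest (5.06 and 6.29), and RC4-2B replicate 2, the middle orange point, lay far from replicates 1 and 3 for SLC29A2 and RRM1.

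Levels between genes were compared per length only. In C4-2B the order of mean FPKM was RRM1 (59.6), RRM2 (28.9), SLC29A1 (25.2), TYMS (24.5), DCTD (24.4), SLC29A2 (24.3), DCK (12.8), NT5C2 (6.93), SAMHD1 (5.06) and CDA (0.035). The libraries of SLC29A1, TYMS, DCTD and SLC29A2 overlapped from neighbour to neighbour, so that their order was not resolved. In RC4-2B the order was RRM1 (77.0), RRM2 (35.2), SLC29A1 (26.0), DCTD (23.0), TYMS (19.8), SLC29A2 (16.3), DCK (12.3), NT5C2 (8.85), SAMHD1 (6.29) and CDA (0.037), and SLC29A2 and DCK overlapped. Among tested genes, SAMHD1 stood at percentile 57.5 and RRM1 at percentile 96.3 of FPKM.

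Of the transporter genes, SLC29A1, on chromosome 6 (44219505 to 44234151), measured 131, 124 and 117 CPM in C4-2B and 133, 121 and 124 CPM in RC4-2B. These ranges overlapped almost fully. Its log2 fold change was 0.02 (SE 0.11, edgeR adjusted p = 0.91), and the 95% interval of the fold was 0.860 to 1.20. With the GC correction the log2 fold change was 0.21 (95% interval -0.02 to 0.45, edgeR adjusted p = 0.24). Without RC4-2B replicate 2 it was 0.05 (edgeR adjusted p = 0.74).

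SLC29A2, on chromosome 11 (66362521 to 66372214, minus strand), had the lowest fold change of the members. It measured 73.4, 76.3 and 71.4 CPM in C4-2B and 58.2, 33.9 and 54.8 CPM in RC4-2B. All RC4-2B libraries lay below all C4-2B libraries, with replicate 2 the lowest by far. The means were 73.7 ± 2.45 and 49.0 ± 13.2 CPM (SD, n = 3 each). The log2 fold change was -0.59 (SE 0.19, 95% interval -1.03 to -0.15), with an edgeR adjusted p of 0.15. Without RC4-2B replicate 2 the difference was smaller and passed the threshold, at -0.38 (SE 0.09, edgeR adjusted p = 0.0105), in a fit that called 1 of the 9 members and 12.5% of 15378 genes. SLC29A2 has the highest transcript GC content of the members, 60.9%, and with the GC correction its log2 fold change was -0.30 (edgeR adjusted p = 0.063). It kept its sign in 18 of 18 alternative fits. An antisense gene, AP001107.9, shares 279 exonic bases with it and had a log2 fold change of -0.32 (edgeR adjusted p = 0.52). For AP001107.9 it was -0.07 without RC4-2B replicate 2 and -0.17 with the GC correction.

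**Figure D2:**
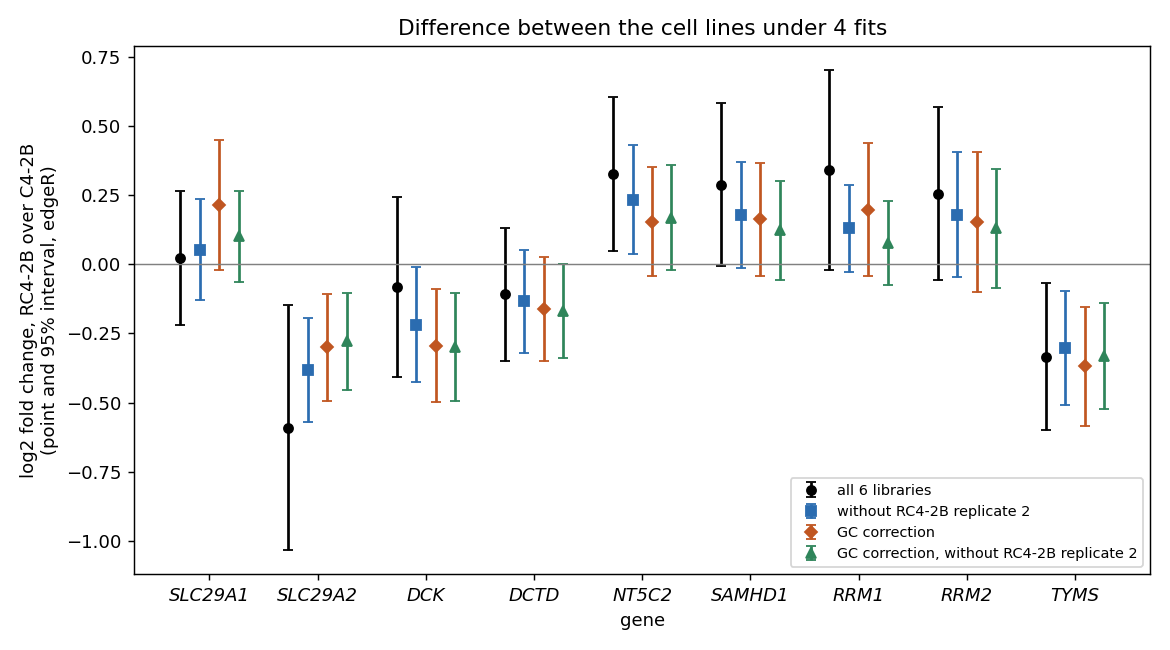
Log2 fold change of the 9 tested members, RC4-2B over C4-2B, with 95% intervals from edgeR, in the fit of all 6 libraries, without RC4-2B replicate 2, with GC correction, and with both. SLC29A2 and TYMS lay below 0 with their whole interval in all 4 fits (-0.59 and -0.33 with all libraries), while the DCK estimate moved from -0.08 to -0.30.

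The ratio of the transporter genes was taken within each library, where library size cancels. SLC29A1 over SLC29A2, in FPKM, was 1.10, 1.00 and 1.01 in C4-2B, against 1.41, 2.20 and 1.40 in RC4-2B. The lines did not overlap, and the log2 difference was 0.65. An exact two-sided permutation test gave p = 0.1, the smallest that 3 against 3 libraries allow, and 0.133 after Benjamini-Hochberg adjustment over the 4 ratios tested. Without RC4-2B replicate 2 the log2 difference was 0.44.

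Among the inactivating genes, NT5C2 and SAMHD1 measured higher and DCTD lower in RC4-2B, and none passed the test. NT5C2, on chromosome 10 (103088017 to 103193306, minus strand), measured 39.7, 38.7 and 41.2 CPM in C4-2B and 47.7, 56.2 and 46.1 CPM in RC4-2B. All RC4-2B libraries lay above all C4-2B libraries. Its log2 fold change was 0.33 (SE 0.12, 95% interval 0.05 to 0.61, edgeR adjusted p = 0.18), 0.23 without RC4-2B replicate 2 (adjusted p = 0.11) and 0.15 with the GC correction. In the GENCODE 44 annotation NT5C2 shares 2724 exonic bases, 29.8% of its exons, with CNNM2 on the opposite strand. By the deposited coordinates, which give NT5C2 a shorter span, the spans of these genes share 2205 bases. The log2 fold change of CNNM2 was 0.03.

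SAMHD1, on chromosome 20 (36889773 to 36951901, minus strand), measured 63.54, 63.53 and 63.53 CPM in C4-2B and 66.9, 89.0 and 76.7 CPM in RC4-2B. The C4-2B libraries were nearly equal, and all RC4-2B libraries lay above them. The log2 fold change was 0.29 (SE 0.13, 95% interval -0.01 to 0.58, edgeR adjusted p = 0.24). It was 0.18 without RC4-2B replicate 2 and 0.16 with the GC correction. DCTD, on chromosome 4 (182890060 to 182917936, minus strand), measured 93.5, 96.6 and 92.9 CPM in C4-2B and 90.7, 90.6 and 81.3 CPM in RC4-2B. The groups did not overlap, but the gap between them was smaller than the range within RC4-2B. The log2 fold change was -0.11 (SE 0.10, edgeR adjusted p = 0.54).

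Activation was set against inactivation within each library. The FPKM ratio of DCK to NT5C2 was 1.92, 1.79 and 1.83 in C4-2B, against 1.26, 1.46 and 1.44 in RC4-2B. The ratio of DCK to SAMHD1 was 2.62, 2.38 and 2.59 in C4-2B, against 1.96, 2.02 and 1.89 in RC4-2B. Both ratios were lower in every RC4-2B library than in any C4-2B library, replicate 2 included. The log2 difference was -0.41 for DCK over NT5C2 and -0.37 for DCK over SAMHD1, each with an exact two-sided permutation p = 0.1 (adjusted 0.133). Leaving out single libraries moved the first between -0.45 and -0.34 and the second between -0.41 and -0.34. The GC content of these transcripts is 37.8% for DCK, 40.5% for NT5C2 and 44.4% for SAMHD1. The 2 ratios share DCK and are not independent of each other.

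**Figure D3:**
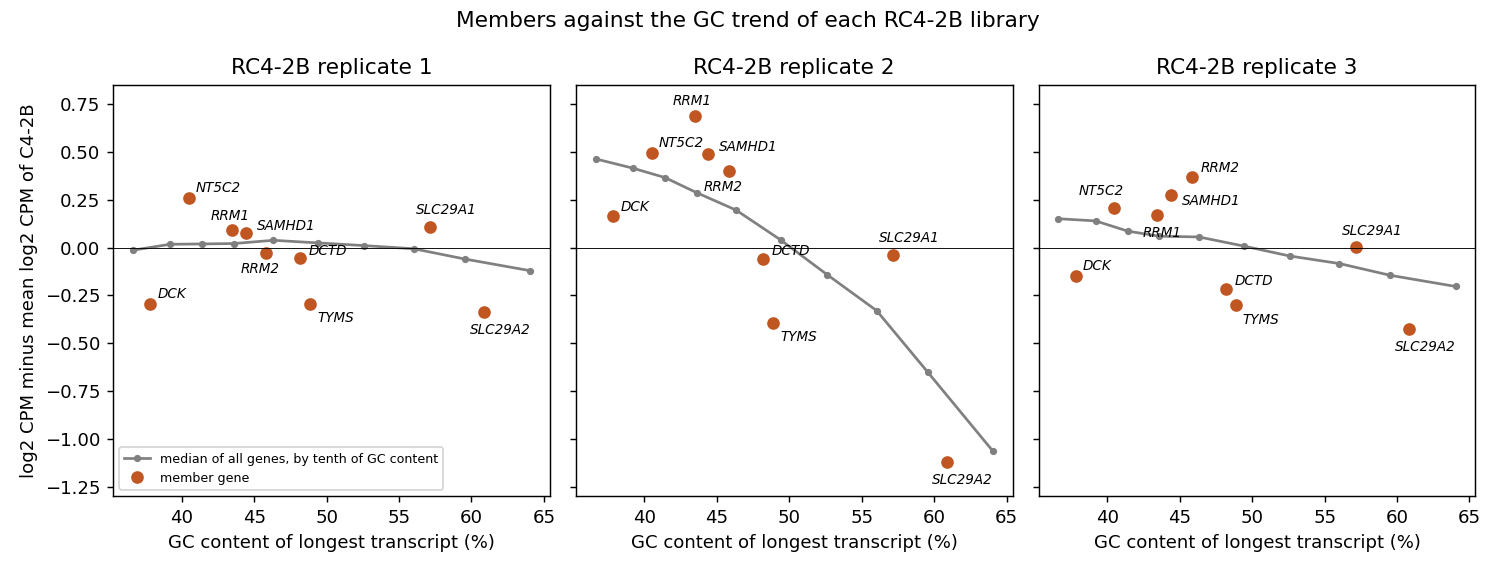
For each RC4-2B library, log2 CPM of 9 members minus their C4-2B mean against the GC content of the longest transcript, with medians of all genes in 10 bins of GC content (grey). In replicate 2 the medians ran from 0.46 to -1.06, and RRM1 (0.69) and SLC29A2 (-1.12) were the extremes of the members, while TYMS lay between -0.39 and -0.29 in all 3 libraries.

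RC4-2B replicate 2 was the highest of the 6 libraries for DCK, NT5C2, SAMHD1, RRM1 and RRM2, whose transcripts have 37.8% to 45.8% GC. It was the lowest for SLC29A2 (60.9%) and for TYMS (48.9%). Over all genes, the medians of that library against the C4-2B mean ran from 0.46 in the lowest of 10 GC bins to -1.06 in the highest. In replicate 1 the same medians stayed between -0.12 and 0.04, and in replicate 3 between -0.20 and 0.15. The plot of members against GC content shows DCK, DCTD, SLC29A2 and TYMS below the median of all genes of like GC content in each RC4-2B library. What set this library apart was not tested.

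The genes of deoxynucleotide supply had estimates of either sign, none past the threshold with all libraries. RRM1, on chromosome 11 (4094707 to 4138876), measured 281, 280 and 273 CPM in C4-2B and 296, 447 and 312 CPM in RC4-2B. All RC4-2B libraries lay above C4-2B, with replicate 2 far above the others. The log2 fold change was 0.34 (SE 0.16, 95% interval -0.02 to 0.70, edgeR adjusted p = 0.25), and it was 0.13 without RC4-2B replicate 2 (adjusted p = 0.27) and 0.20 with the GC correction (adjusted p = 0.29). RRM2, on chromosome 2 (10120698 to 10131419), measured 184, 173 and 159 CPM in C4-2B and 168, 226 and 221 CPM in RC4-2B. The lines overlapped through RC4-2B replicate 1. RRM2 had a log2 fold change of 0.26 (SE 0.14, 95% interval -0.06 to 0.57, edgeR adjusted p = 0.30). It was 0.15 with the GC correction and 0.18 without RC4-2B replicate 2. When replicate 1 of that line was left out instead, it was 0.38 (edgeR adjusted p = 0.084). RRM2 pseudogenes held at most 2 counts in any library.

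The subunit ratio, RRM2 over RRM1 in FPKM, was 0.514, 0.484 and 0.458 in C4-2B, against 0.446, 0.397 and 0.556 in RC4-2B. The lines overlapped. The log2 difference was -0.07 (exact two-sided permutation p = 0.6), and it changed sign to 0.038 without RC4-2B replicate 2.

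TYMS, on chromosome 18 (657604 to 673578), measured 65.4, 74.7 and 62.7 CPM in C4-2B and 55.0, 51.3 and 54.6 CPM in RC4-2B. All RC4-2B libraries lay below C4-2B and close to each other, with means of 67.6 ± 6.30 and 53.6 ± 2.02 CPM (SD, n = 3 each). The log2 fold change was -0.33 (SE 0.12, 95% interval -0.60 to -0.07, edgeR adjusted p = 0.17). Over the fits that leave out 1 library it ranged from -0.39 to -0.26. It passed the threshold with the GC correction (-0.37, edgeR adjusted p = 0.046), in a fit that called 7.6% of all genes. With the replicate number as a block in the same fit, the adjusted p was 0.067 at -0.37. Without RC4-2B replicate 2 and without the correction it was 0.052.

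The promoter stretches of the 3 supply genes are shown because these genes are all used in S phase and their estimates had either sign. Capitals mark matches, on either strand, to the CCAAT box (CCAAT) or to an E2F motif (TTTCCCGC, TTTGGCGC, TTTCGCGC or TTTGCCGC). The windows are chr11:4094435-4094684 for RRM1, chr2:10122489-10122738 for the more downstream of 2 RRM2 starts, and chr18:657403-657652 for TYMS, all on the plus strand, from RefSeq (GRCh38.p14).
RRM1: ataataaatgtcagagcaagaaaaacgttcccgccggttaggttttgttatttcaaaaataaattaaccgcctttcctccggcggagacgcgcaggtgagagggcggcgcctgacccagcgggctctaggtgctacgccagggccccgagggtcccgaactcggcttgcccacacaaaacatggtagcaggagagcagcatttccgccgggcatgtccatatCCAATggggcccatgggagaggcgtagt
RRM2: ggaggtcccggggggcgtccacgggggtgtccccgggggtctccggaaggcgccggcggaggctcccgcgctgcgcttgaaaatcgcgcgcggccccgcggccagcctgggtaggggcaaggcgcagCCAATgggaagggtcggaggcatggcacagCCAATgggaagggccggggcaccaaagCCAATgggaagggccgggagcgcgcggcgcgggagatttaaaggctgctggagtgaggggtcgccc
TYMS: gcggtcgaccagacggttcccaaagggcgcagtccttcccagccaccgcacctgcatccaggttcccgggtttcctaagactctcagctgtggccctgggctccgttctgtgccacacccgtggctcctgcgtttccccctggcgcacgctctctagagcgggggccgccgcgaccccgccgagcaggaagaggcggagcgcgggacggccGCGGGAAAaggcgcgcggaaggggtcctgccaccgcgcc

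The RRM1 stretch holds 1 CCAAT box and the RRM2 stretch holds 3, with first bases 123, 93 and 66 bases before the start. The window of the other RRM2 start holds 1. The RRM2 windows lie inside the deposited RRM2 span, and the TYMS window reaches past the deposited TYMS start. The TYMS stretch holds no CCAAT box and 1 E2F match, read as GCGGGAAA on the strand of the gene. Of all 35116 promoters of this length, 32.01% hold a CCAAT box and 2.79% an E2F match. A match is a description of the letters and not a bound site. The promoter table matched 9 of the 10 members, and SLC29A2 was the other.

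TYMS shares its locus with 2 genes on the opposite strand, and all 3 measured lower in RC4-2B. ENOSF1, which encodes a mitochondrial enolase-family enzyme, shares 967 exonic bases with TYMS, 39.9% of the TYMS exons. It measured 43.0, 41.2 and 43.2 CPM in C4-2B and 28.6, 25.9 and 24.4 CPM in RC4-2B, with no overlap. It fell by 0.69 on the log2 scale (SE 0.12, edgeR adjusted p = 0.028). Leaving out any C4-2B library or RC4-2B replicate 3 ended that call, with adjusted p between 0.114 and 0.174, at a log2 fold change of -0.71 to -0.64. The replicate block (-0.69, edgeR adjusted p = 0.064) and limma on log2(FPKM + 1) and log2(FPKM + 0.1) (adjusted p = 0.087 and 0.090) ended it too. The call held with DESeq2 (adjusted p = 0.00028), with the GC correction (edgeR adjusted p = 0.0019) and without RC4-2B replicate 2 (edgeR adjusted p = 0.00074). TYMSOS, a noncoding RNA that starts at the TYMS promoter and runs the other way, measured 16.7, 15.3 and 12.2 CPM in C4-2B and 8.82, 5.53 and 7.28 CPM in RC4-2B. Its groups did not overlap, and the log2 fold change was -1.03 (SE 0.21, edgeR adjusted p = 0.052). DESeq2 (adjusted p = 0.0011) and edgeR with the GC correction (adjusted p = 0.016) called TYMSOS. With each library left out, its edgeR adjusted p ran from 0.0037 to 0.26. The replicate block and limma on log2(FPKM + 1) and log2(FPKM + 0.1) did not call it. Whether counting used strand is not given in the sources used here, so that reads in shared exons cannot be assigned to 1 gene.

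**Figure D4:**
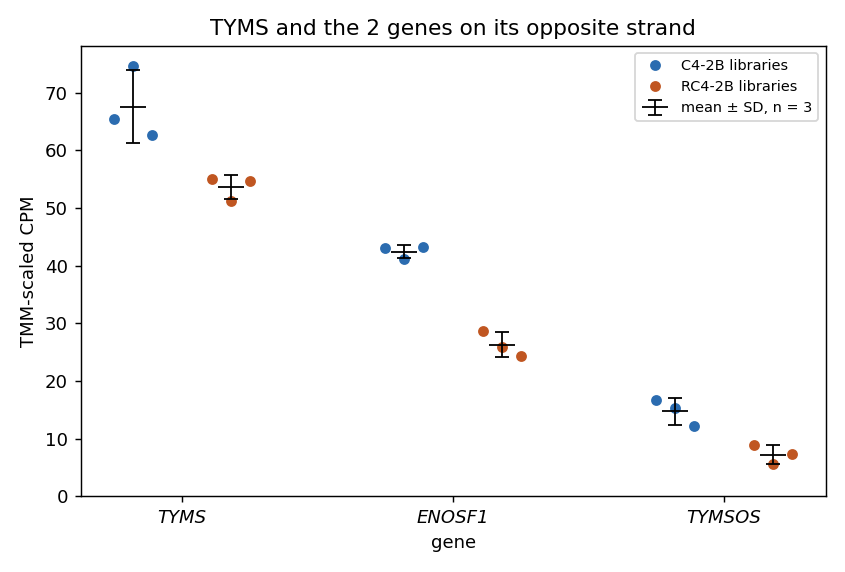
TMM-scaled CPM of TYMS and of ENOSF1 and TYMSOS on the opposite strand, per library, with the mean and SD of 3 libraries per line. Every RC4-2B point lies below every C4-2B point for all 3 genes, at means of 53.6 against 67.6, 26.3 against 42.5 and 7.21 against 14.7 CPM.

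The rest of chromosome 18 was set beside them. Over 170 expressed genes of that chromosome the median log2 fold change was -0.18, and it was -0.31 with the GC correction, where 83.5% of the genes lay below 0. On the chromosomes of the other members the corrected medians ran from -0.05 to 0.02. The TYMS value of -0.37 with the same correction lay near the median of its chromosome. ENOSF1 (-0.76) and TYMSOS (-1.19) lay further below 0 than that median with the same correction. Copy number was not measured, and its part in these values was not tested.

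The other genes of the pathway gave a background of the same kind. Of 57 further genes of nucleoside uptake, efflux, phosphorylation, dephosphorylation, pyrimidine synthesis and DNA polymerisation, 50 were tested and none passed edgeR's adjusted p of 0.05. At an unadjusted p under 0.05, 3 were higher and 5 lower, where 21.4% of all tested genes passed. DESeq2 called 1, MTHFD2, where it called 5.93% of all genes. Their median log2 fold change was -0.02, with a range of -0.74 to 0.38.

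The concentrative transporters were at or near 0. SLC28A1 and SLC28A3 had 0 counts in all 6 libraries, and SLC28A2 had at most 7 counts in any library. Of the other equilibrative transporters, SLC29A3 averaged 2.02 FPKM in the parental line and 2.06 in RC4-2B (log2 fold change 0.01, edgeR adjusted p = 0.97). SLC29A4 averaged 1.01 and 0.960 FPKM (log2 fold change -0.10, edgeR adjusted p = 0.83). With the GC correction their log2 fold changes were 0.17 and 0.18, and without RC4-2B replicate 2 they were 0.12 and 0.05. Among the nucleotide exporters, 3 of 4 were tested, and ABCC4, which exports nucleoside monophosphates, had the highest value, 21.7 ± 3.16 FPKM in the parental line and 28.9 ± 6.83 in RC4-2B (SD, n = 3). Its log2 fold change was 0.38 (SE 0.17, edgeR adjusted p = 0.23), 0.20 without RC4-2B replicate 2 and 0.24 with the GC correction. ABCC5 had a log2 fold change of 0.05, and 0.21 without RC4-2B replicate 2.

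All 11 salvage and nucleotide kinase genes were tested and none was called. The thymidine kinase TK1 was the most abundant, at 212 FPKM in C4-2B and 243 in RC4-2B, with a log2 fold change of 0.17 (edgeR adjusted p = 0.43). For TK1 the GC correction gave 0.61 (edgeR adjusted p = 0.064), and the correction without RC4-2B replicate 2 gave 0.34 (edgeR adjusted p = 0.014). CMPK1, which phosphorylates the monophosphates that DCK makes, averaged 40.0 and 45.6 FPKM (log2 fold change 0.16, edgeR adjusted p = 0.56), and its log2 fold change was -0.04 without RC4-2B replicate 2 and -0.06 with the GC correction. Of 15 nucleotidase and deaminase genes 12 were tested, and the most abundant were DCTPP1, which hydrolyses dCTP (log2 fold change -0.28), and NT5DC2 (log2 fold change -0.13). Without RC4-2B replicate 2 the DCTPP1 value was -0.12, with the GC correction it was -0.17, and NT5DC2 changed sign to 0.15 with the correction. The lowest log2 fold change of the pathway, -0.74 (edgeR adjusted p = 0.22), was that of TYMP, thymidine phosphorylase, named here after its value was seen. It was -0.44 without RC4-2B replicate 2 and -0.50 with the GC correction.

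In the list of deoxynucleotide and pyrimidine synthesis, 12 of 12 genes were tested. SHMT2, which supplies one-carbon units in mitochondria, averaged 90.9 ± 6.39 FPKM in C4-2B and 68.5 ± 13.0 in RC4-2B (SD, n = 3), with a log2 fold change of -0.43 (edgeR adjusted p = 0.17). SHMT2 had -0.27 with the GC correction. MTHFD2, the mitochondrial folate enzyme next to SHMT2, and POLA1, the catalytic subunit of DNA polymerase alpha, were named after their values were seen. MTHFD2 measured 233, 242 and 238 CPM in C4-2B and 180, 193 and 166 CPM in RC4-2B, without overlap. Its log2 fold change was -0.40 (SE 0.10, edgeR adjusted p = 0.081), and without RC4-2B replicate 2 it was -0.46 (edgeR adjusted p = 0.0015). POLA1 measured 60.4, 63.5 and 63.9 CPM in C4-2B and 42.02, 53.8 and 47.6 CPM in RC4-2B, also without overlap. POLA1 had a log2 fold change of -0.39 (edgeR adjusted p = 0.14), and -0.48 without RC4-2B replicate 2 (edgeR adjusted p = 0.0039). The most abundant polymerase genes, POLD2 and POLD1, had log2 fold changes of -0.23 and -0.37 (edgeR adjusted p = 0.25 and 0.40). With the GC correction these were 0.03 and 0.01, and without RC4-2B replicate 2 they were -0.19 and -0.09.

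**Figure D5:**
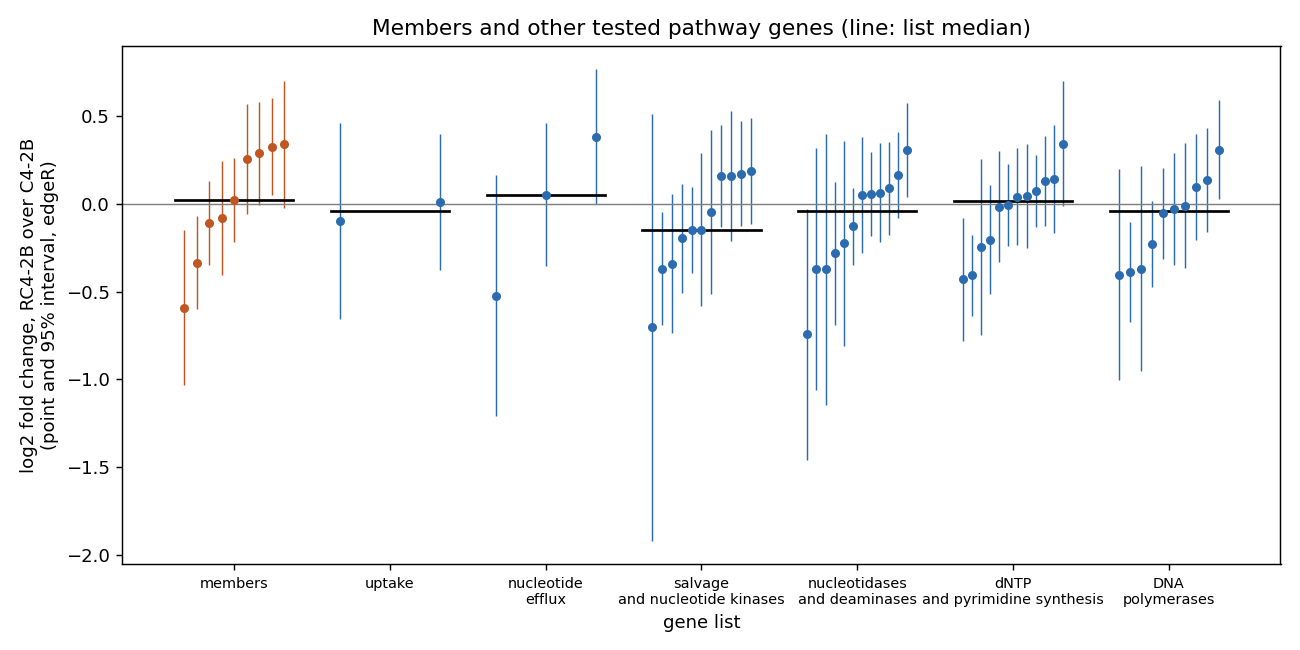
Log2 fold change with 95% interval (edgeR) of the 9 tested members (orange) and of the 50 other tested pathway genes (blue) by list, with a line at the list median. Most intervals cross 0, and the medians of the 6 lists run from -0.15 (kinases) to 0.05 (efflux).

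RRM1, RRM2 and TYMS are S-phase genes, so the level of proliferation genes was set beside them. Of 20 S-phase and proliferation genes, all were tested and 1 was called, where 1.98% of all tested genes were. That gene, TOP2A (topoisomerase II alpha), rose by 0.84 on the log2 scale (SE 0.13, edgeR adjusted p = 0.018). At an unadjusted edgeR p under 0.05, 4 of the 20 genes were higher and 1 lower, where 21.4% of all tested genes passed. The median of the 20 genes was -0.01. Their summed level was 3658 to 4128 CPM in C4-2B and 4102 to 4215 CPM in RC4-2B.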

How the data were processed

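Reads were mapped by the authors to GRCh38 with STAR (version not given in the sources used here), and the counting tool, its strand setting and the annotation release are not given either. Per the deposited tables, values were raw read counts per gene and FPKM per gene made by the authors from each of 6 libraries, without pooling. Counts were tested with edgeR 4.0.16 in R 4.3.3 (filterByExpr with a minimum count of 10, TMM scaling, quasi-likelihood F-test, cell line as the only term), fitted over all genes, and p-values were adjusted by Benjamini-Hochberg and called under 0.05. The procedure was tested on simulated counts. FPKM was used for levels between genes and for ratios within libraries, tested by exact permutation. P-values measure the spread between these libraries, and nothing beyond the labels says that they came from separate cultures.

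The GC correction entered each library's lowess trend (span 0.2) of log2 CPM deviation on transcript GC content (GENCODE 44) as an edgeR offset. Shared exonic bases were also counted in GENCODE 44, where the spans of NT5C2 and some other members differ from the deposited ones. The alternatives were DESeq2 1.42.0, limma 3.58.1 on log2(FPKM + 1) or log2(FPKM + 0.1), other scalings and filters, the replicate number as a block, and each library left out. The members and lists were chosen with earlier results of these data known. Named genes were the members, genes that overlap them, pathway genes past the threshold, and the 2 most abundant genes of each pathway list by mean FPKM. Others are marked as named after their values were seen, and 1 gene that this rule names is not reported here.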

Additional observations from a re-analysis of the deposited data

How the results depend on the processing

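The counts of calls depended on the libraries used. With all libraries edgeR called 1.98% of tested genes. This share was 5.93% with DESeq2, 4.29% with no filter on low counts, 0.857% with the replicate block, 7.60% with the GC correction, 7.90% with both the block and the correction, and 13.3% with the GC correction and no RC4-2B replicate 2. It was 0.868% and 0.717% with limma on log2(FPKM + 1) and log2(FPKM + 0.1), and 0.124% with limma and no filter. With each library left out it ran from 0.284% to 12.5%: 0.284%, 0.371% and 0.364% without C4-2B replicates 1, 2 and 3, and 3.07%, 12.5% and 0.503% without RC4-2B replicates 1, 2 and 3. Members called lower numbered 0 with all libraries, 1 with no filter (SLC29A2), 1 with the GC correction (TYMS), 3 with the correction and no RC4-2B replicate 2 (SLC29A2, DCK and TYMS), and 0 to 1 with each library left out (SLC29A2, without RC4-2B replicate 2). No member was called higher under any of the 18 alternatives. Pathway genes called lower numbered 1 with DESeq2, 1 with no filter, 2 with the GC correction, 2 with block and correction, 2 with the correction and no RC4-2B replicate 2, and 0 to 2 with each library left out (SHMT2 without RC4-2B replicate 1, MTHFD2 and POLA1 without RC4-2B replicate 2). Pathway genes called higher numbered 1 with block and correction (TK1) and 2 with the correction and no RC4-2B replicate 2. The log2 difference of RRM2 over RRM1 ran from -0.20 to 0.038 with each library left out. The estimates of SLC29A1 and DCK changed sign in 2 and 1 of 18 alternatives. The correlations of deviations between libraries of the same replicate number were 0.32, 0.18 and -0.07, against -0.30 to 0.18 between unlike numbers. With 3 libraries per line, these values do not settle whether the numbers pair the lines. The block called no member. The cause of these changes was not tested. The precision was limited by 3 libraries per line.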
